A study of Mus musculus with 6 samples.

Results

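B2m, H2-K1 and H2-D1 encode the parts of the MHC class I molecule that nearly every nucleated cell carries. Their poly(A) tails and tag counts were followed by mTAIL-seq, which reads RNA 3' ends together with their tails, in naive CD4 T cells of mice with and without the proteins BTG1 and BTG2. The 3 genes were taken by their Ensembl IDs (ENSMUSG00000060802, ENSMUSG00000061232 and ENSMUSG00000073411), out of 6469 gene IDs with tailed tags, and each had tailed tags in all 6 libraries. They were chosen by name with the tail lengths and tag counts of these same libraries known, and both measures are counted here as having entered the choice. Levels and orders below are therefore descriptions, and the tests come from fits over all gene IDs and are no independent evidence for these genes.

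The libraries came from T cells sorted as TCRβ+ CD4+ CD25- CD62L-high and CD44-low. The 3 WT libraries were from littermate controls with the genotype Btg1f/f Btg2f/f, and the 3 DKO libraries from mice with the genotype Btg1f/f Btg2f/f-CD4-Cre, so that both groups carried the floxed alleles. CD4-Cre acts from the thymus onwards in the T cell lineage, and the deletion is not limited to naive CD4 cells. The series text gives 3 replicates per genotype and the growth protocol 2 pairs of mice. The sources used here do not say which libraries share mice, nor the age of the mice, so the spread between libraries may be partly technical. The files do not pair gene IDs with symbols, and the deletion of Btg1 and Btg2, the defining markers of the sorted cells and the other genes of antigen presentation were not analysed here.

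A tag is a group of reads from 1 RNA 3' end. Mapped tags numbered 22311 to 97097 per library, and 3943 to 24024 of them had a tail of at least 5 nt and a link to a gene ID. The libraries numbered 3 stood apart in both genotypes: 32.3% and 35.3% of their mapped tags were untailed, against 7.95% to 9.94% in the others. Over all tailed, linked tags the geometric mean tail was 38.2 to 62.4 nt in the WT libraries and 49.3 to 66.6 nt in the DKO libraries, lowest in number 3 of each.

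The class I molecule consists of a heavy chain, here the product of H2-K1 or H2-D1, and the light chain beta-2-microglobulin, the product of B2m. The heavy chain holds a peptide cut from proteins made in the cell and shows it to CD8 T cells, and without beta-2-microglobulin most heavy chains do not reach the cell surface. In T cells themselves, class I molecules are abundant. BTG1 and BTG2 bind the CCR4-NOT complex, a deadenylase that trims poly(A) tails. The series asks how these proteins bear on mRNA stability.

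B2m lies on chromosome 2 (GRCm38.p6, 122147687 to 122153082, plus strand). H2-K1 (33996012 to 34000619, minus strand) and H2-D1 (35263094 to 35267497, plus strand) lie on chromosome 17 in the major histocompatibility complex. The 250 bases before a RefSeq start of each gene are given here because either heavy chain pairs with the product of B2m and the mRNA levels of the 3 genes are compared below. The promoter table lists 2 starts of H2-K1, and the window printed precedes the more upstream of them. Both starts lie inside the span given for H2-K1, so that this window is within the annotated gene and does not precede its outermost end. Short capitals mark CCAAT (the core bound by NF-Y) and TGACG (the core of the X2 box bound by CREB and ATF factors), each searched on both strands, and the long run of capitals is the longest stretch that H2-K1 and H2-D1 have in common.
B2m, chr2:122147437-122147686, plus strand: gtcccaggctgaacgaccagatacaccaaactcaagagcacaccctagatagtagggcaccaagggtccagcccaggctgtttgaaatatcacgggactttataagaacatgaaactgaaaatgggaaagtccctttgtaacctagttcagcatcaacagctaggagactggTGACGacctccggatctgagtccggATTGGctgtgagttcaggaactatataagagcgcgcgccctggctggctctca
H2-K1, chr17:34000348-34000597, minus strand: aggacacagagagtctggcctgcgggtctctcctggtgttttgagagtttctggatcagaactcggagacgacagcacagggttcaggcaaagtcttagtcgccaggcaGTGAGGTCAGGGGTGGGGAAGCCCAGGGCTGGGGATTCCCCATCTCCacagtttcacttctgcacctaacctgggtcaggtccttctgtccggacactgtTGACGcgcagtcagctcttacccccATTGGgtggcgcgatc
H2-D1, chr17:35262844-35263093, plus strand: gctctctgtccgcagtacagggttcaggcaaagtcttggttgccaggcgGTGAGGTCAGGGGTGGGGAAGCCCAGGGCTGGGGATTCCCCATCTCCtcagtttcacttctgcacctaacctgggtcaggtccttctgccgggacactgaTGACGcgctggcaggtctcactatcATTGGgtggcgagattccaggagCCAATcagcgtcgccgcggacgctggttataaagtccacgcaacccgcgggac
CCAAT and TGACG occurred in all 3 windows, and 6.12% of 32851 promoter windows of this length held both (33.8% held CCAAT and 17.8% TGACG). The run shared by H2-K1 and H2-D1 spans 47 bases and occurs in the windows of no other gene in the table, whereas B2m shares at most 8 bases in a row with either. The marked stretches do not overlap each other. The tag data do not measure promoters, and a match describes letters only.

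B2m had a longer mean poly(A) tail in every DKO library than in any WT library. Its geometric mean tail over tailed tags was 61.4, 63.5 and 61.2 nt in the WT libraries and 75, 89 and 86.7 nt in the DKO libraries. The WT libraries lay within a few nt of each other, and a gap of 11.5 nt separated the genotypes. B2m tails averaged 62.0 nt ± 1.26 (SD, n = 3) over the WT libraries and 83.6 nt ± 7.52 (SD, n = 3) over the DKO libraries, a difference of 21.5 nt. Within the same replicate number DKO exceeded WT by 13.6, 25.5 and 25.5 nt. These means rest on 82, 57 and 42 tailed tags in WT and on 151, 185 and 17 in the DKO libraries, and their standard errors over tags were 0.05 to 0.15 on the log2 scale.

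**Figure D1:**
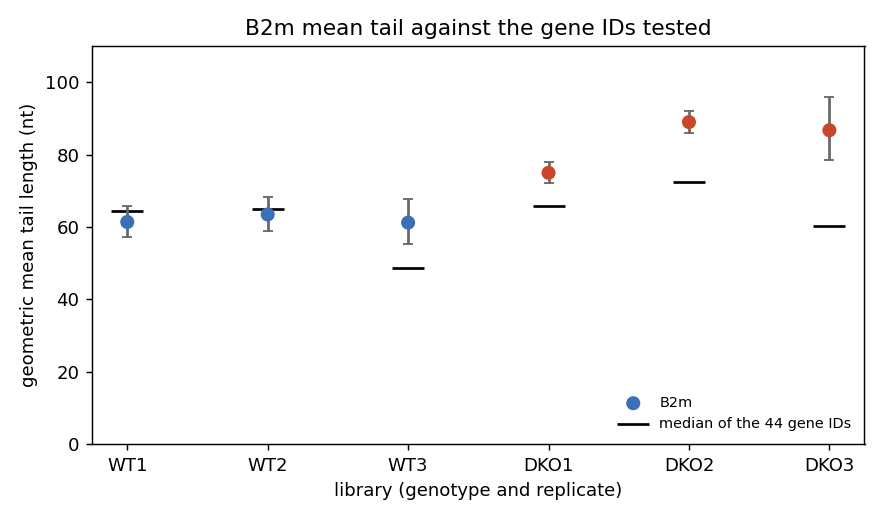
B2m geometric mean tail length in nt in each library (points, blue for WT and red for DKO, bars 1 standard error over tags) beside the median of the mean tails of the 44 gene IDs tested (black dashes). The 3 WT points lie between 61.2 and 63.5 nt and the 3 DKO points between 75 and 89 nt, while the dash of WT replicate 3 falls to 48.7 nt.

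The limma fit took the 44 gene IDs that had 10 or more tailed tags in each library. In it the log2 change of B2m (DKO over WT) was 0.43 (SE 0.12, unadjusted p = 0.0076, Benjamini-Hochberg adjusted p = 0.17). The change did not pass the threshold of 0.05, and the adjusted p was 0.13 to 0.94 over the other settings. Of the 44 IDs, 0 (0%) passed, and 2 (4.55%) had an unadjusted p under 0.05, B2m among them. Mean tails without overlap between genotypes were found in 5 of 44 IDs (11.4%), all longer in DKO. The median ID changed by 0.12 on the log2 scale, 42 of the 44 were higher in DKO, and B2m had the second largest change on this scale, after ENSMUSG00000000682.7 with 0.50. In nt the difference of B2m was the largest of the 44, at 21.5 against 20.2 nt for ENSMUSG00000000682.7. The IDs were higher in DKO in 3 of 3 same-numbered pairs in 22 of 44 cases, B2m included.

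The position of B2m among these IDs also differed between libraries. It was 0.953, 0.977 and 1.26 times the median of the 44 IDs in WT and 1.14, 1.23 and 1.44 times in DKO. WT replicate 3 thus overlapped DKO on this relative scale, because its median ID had a tail of 48.7 nt while B2m stayed at 61.2 nt. Counted from the longest, B2m ranked 30, 25 and 7 of 44 in the WT libraries and 9, 5 and 2 of 44 in the DKO libraries. With each library centred on that median, the log2 change of B2m was 0.26 (SE 0.13, limma adjusted p = 0.94), the median ID moved to -0.05, and 15 of 44 IDs were higher in DKO in place of 42. With numbers 1 and 2 only, and no centring, the change of B2m was 0.39 (SE 0.13, adjusted p = 0.41).

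**Figure D2:**
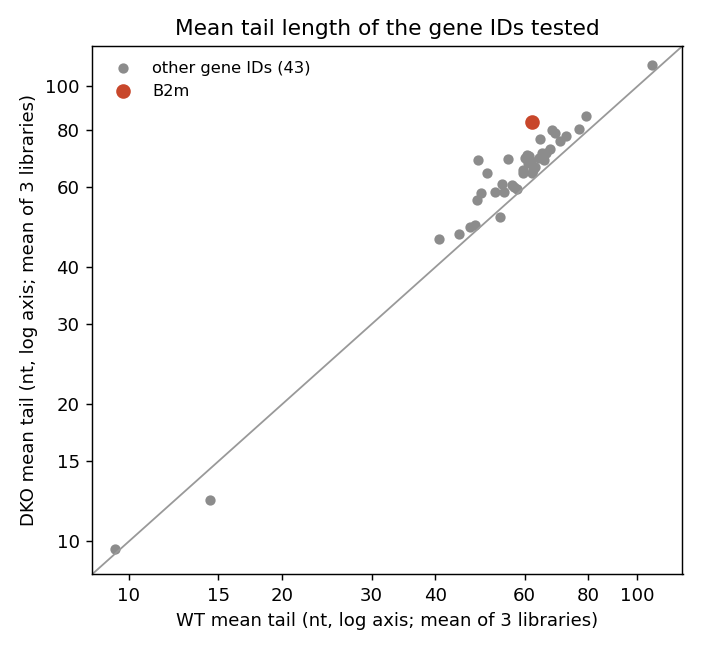
Mean tail length in nt of the 44 gene IDs tested, WT on the x axis against DKO on the y axis, both on log axes and each the geometric mean over 3 libraries. The line marks equal length, and B2m (red) lies above it, at 62.0 nt in the WT libraries and 83.3 nt in the DKO libraries.

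The lower quartile and the median of the B2m tails did not overlap between genotypes, and the upper quartile did. The lower quartile was 40.5, 45 and 38 nt in the WT libraries and 61.5, 66 and 69 nt in the DKO libraries, with a gap of 16.5 nt between the groups. The median was 69, 68 and 64.5 nt in the WT libraries and 79, 96 and 80 nt in the DKO libraries. The upper quartile was 96, 91 and 99.8 nt in the WT libraries and 97, 121 and 121 nt in the DKO libraries. The overlap of the upper quartile came through DKO replicate 1. A lower quartile without overlap, higher in DKO, was found in 12 of the 44 IDs (27.3%). How many IDs had a median without overlap was not counted. In the limma fit of median tail length 40 of the 44 IDs were higher in DKO.

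Short B2m tails, under 30 nt, were less frequent in each DKO library. They made up 11.0% (9 tags, 95% exact interval 5.14 to 19.8), 7.02% (4 tags, 1.95 to 17.0) and 9.52% (4 tags, 2.66 to 22.6) in the WT libraries. In DKO they made up 3.31% (5 tags, 1.08 to 7.56), 1.08% (2 tags, 0.131 to 3.85) and 0 of 17 tags (95% exact upper limit 19.5). A limit of 3 counts would put that last share at up to 17.6%. Intervals and these limits cover counting error only. The genotypes did not overlap, as was the case, in the same direction, in 13 of the 44 IDs (29.5%), so that B2m shared this with many IDs. Tails of 30 to 59 nt made up 32.9%, 33.3% and 38.1% in the WT libraries and 18.5%, 18.4% and 11.8% in the DKO libraries. These did not overlap either, which was so, in the same direction, in 3 of 44 IDs (6.82%).

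Long B2m tails, of 90 nt and over, made up 30.5%, 28.1% and 33.3% of tags in the WT libraries and 34.4%, 53.5% and 47.1% in the DKO libraries. The lowest DKO share lay 1.1 percentage points above the highest WT share, less than the counting interval of either, which was 26.9% to 42.6% in DKO replicate 1 and 19.6% to 49.5% in WT replicate 3. B2m was the 1 ID of 44 (2.27%) in which these shares did not overlap. Tails of 150 nt and over overlapped, from 3.51% to 6.10% for WT and from 4.64% to 13.0% for DKO, with the highest share in DKO replicate 2.

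**Figure D3:**
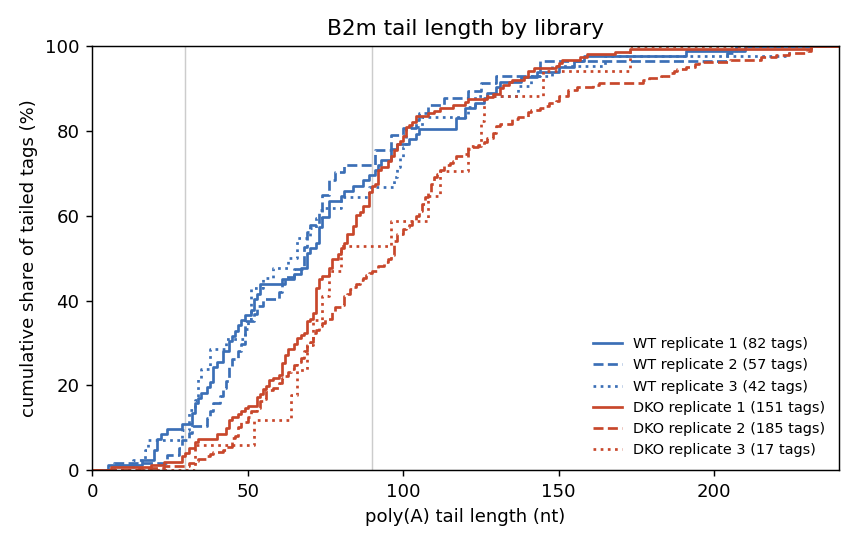
Cumulative share in percent of tailed B2m tags by tail length in nt, 1 line per library (blue for WT, red for DKO, line style for the replicate number), with grey lines at 30 and 90 nt. The 3 WT lines lie left of the DKO lines over the short and middle lengths, and DKO replicate 1 meets the WT lines at about 90 nt and above.

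Few B2m tails ended in an added base. Such a base, a U (read as T), G or C listed as added, can mark an RNA for decay when it is a U on a short tail. A U was listed on 2, 2 and 0 tags in the WT libraries and on 5, 3 and 0 in the DKO libraries. Summed over libraries this was 4 of 181 tags in the WT libraries (2.21%, 95% exact interval 0.605 to 5.56) and 8 of 353 in the DKO libraries (2.27%, 0.983 to 4.42). These intervals pool the tags of a genotype and leave out the spread between libraries. Over all tailed, linked tags of a library the share with a U was 2.30% to 3.61%. Of the 4 tags with a U in WT, 2 had a tail under 30 nt, of 5 and 7 nt, and of the 8 in the DKO libraries 0 had. The tag of 5 nt has no listed tail letters, an added TA and a length of 0 nt before mapping, so that 1 of these short tails is an A stretch ending in a U. A G and a C were listed on 1 tag each, both in DKO replicate 1. Listed letters can be fewer than the tail length, as with 13 letters for 44 nt in WT replicate 2 and 100 for 139 nt in DKO replicate 1. The following B2m tails, picked among those whose letters before the added bases equal their length, are printed as listed. They show how such an end looks, with the added bases in capitals.
WT replicate 2, tail of 7 nt: aaaaaaaT
WT replicate 1, tail of 39 nt: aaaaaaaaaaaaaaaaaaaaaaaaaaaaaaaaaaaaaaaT
DKO replicate 1, tail of 58 nt: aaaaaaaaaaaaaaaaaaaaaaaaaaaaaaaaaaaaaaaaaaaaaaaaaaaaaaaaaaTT
DKO replicate 1, tail of 66 nt: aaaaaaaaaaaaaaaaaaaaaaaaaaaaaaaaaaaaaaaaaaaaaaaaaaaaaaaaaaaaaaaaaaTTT
DKO replicate 2, tail of 96 nt: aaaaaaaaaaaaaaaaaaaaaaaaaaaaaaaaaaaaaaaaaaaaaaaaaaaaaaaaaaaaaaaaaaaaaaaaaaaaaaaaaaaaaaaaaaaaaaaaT
In these examples the 58 and 66 nt tails carry TT and TTT, and the others a single T. Further B2m tails with letters equal to their length are not printed. They are of 47 and 70 nt in DKO replicate 2, with a single T each, and of 87 nt in DKO replicate 1, with a G. The number of tails with an added base is too small to compare the genotypes. Untailed B2m tags numbered 0, 2 and 0 in the WT libraries and 2, 1 and 0 in the DKO libraries.

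The heavy chain genes gave few tags. H2-K1 had 4, 5 and 2 tailed tags in WT and 20, 13 and 5 in the DKO libraries, and H2-D1 had 8, 5 and 4 in the WT libraries and 15, 10 and 2 in the DKO libraries. Neither reached 10 tags in every library, and neither entered the limma fit. H2-K1 and H2-D1 are close paralogs in a family of class I genes. No tag of either gene or of B2m was linked to a second gene ID, but how the mapping placed reads that fit several class I genes is not stated, so the split between them is uncertain.

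The mean tail of H2-K1 was 64.8, 46.9 and 25.7 nt in the WT libraries and 50.6, 76.6 and 44.8 nt in the DKO libraries. The genotypes overlapped, and DKO minus WT was -14.2, 29.8 and 19.1 nt within the replicate numbers. The highest WT value rests on 4 tags, 1 of them of 218 nt. For H2-D1 the mean tail was 62.0, 49.0 and 25.2 nt in the WT libraries and 60.9, 51.8 and 59.2 nt in the DKO libraries, and it too overlapped. The difference of H2-D1 lay mostly in number 3, with 33.9 nt there against -1.17 and 2.72 nt in numbers 1 and 2. Number 3 held 4 tags of H2-D1 in the WT libraries and 2 in the DKO libraries.

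**Figure D4:**
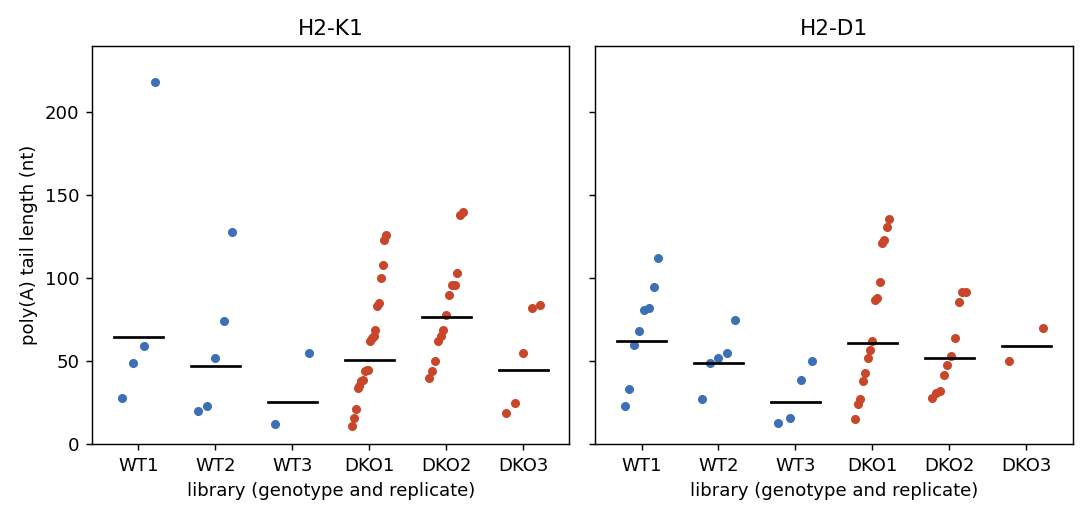
Tail length in nt of every tailed tag of H2-K1 (left) and H2-D1 (right) in each library, ordered by length within a library, blue for WT and red for DKO. Black lines are geometric means, which for H2-K1 run from 25.7 to 76.6 nt and for H2-D1 from 25.2 to 62.0 nt.

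With the tags of both heavy chain genes put together, the mean tail was 62.9, 48.0 and 25.4 nt in the WT libraries and 54.8, 64.6 and 48.5 nt in the DKO libraries. From WT replicate 1 to 3 the heavy chain means fell more steeply than the mean of all tailed, linked tags. They were 1.01, 0.815 and 0.665 times that mean, on 12, 10 and 6 tags, while B2m was at 0.984, 1.08 and 1.6 times it. In DKO the heavy chains were at 0.884, 0.970 and 0.984 times the library mean and B2m at 1.21, 1.34 and 1.76 times. B2m had the longer mean tail in 5 of 6 libraries, with WT replicate 1 as the exception, and the gap exceeded 2 standard errors over tags in 4 of 6. Between H2-K1 and H2-D1 the order was even, each longer in 3 of 6.

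B2m was the most abundant of the 3 mRNAs in each library. Because tags come from RNA 3' ends, a gene's count does not scale with transcript length. Per 10000 tag-to-gene links of the library, B2m had 47.8, 49.4 and 57.7 tailed tags in WT and 72.4, 76.4 and 42.6 in the DKO libraries. It ranked 21, 20 and 22 among gene IDs by tag count in WT and 11, 11 and 22 in the DKO libraries. DKO replicates 1 and 2 lay above all WT libraries and DKO replicate 3 below them, so that the genotypes overlapped. It averaged 51.6 ± 5.29 (SD, n = 3) over the WT libraries and 63.8 ± 18.5 (SD, n = 3) over the DKO libraries.

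In edgeR's quasi-likelihood test over 170 gene IDs, the log2 change of B2m in tag count was 0.27 (SE 0.40, adjusted p = 0.88, and 0.30 to 0.99 over the other settings). Without DKO replicate 2 it was 0.21, without WT replicate 2 it was 0.13, and with numbers 1 and 2 only it was 0.44. Of the 170 IDs, 0 (0%) passed, and 13 (7.65%) had an unadjusted p under 0.05, while DESeq2 also passed 0 and had 8 unadjusted. With the replicate number as a block 3 of 170 (1.76%) passed, with numbers 1 and 2 only 30 of 241 (12.4%), and without WT replicate 3 there were 8, and B2m was in none of these sets (adjusted p = 0.83 with the block). In bulk libraries of this kind a tag count is a share of the tags, and more mRNA per cell and a different mix of cells cannot be told apart.

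H2-K1 had a larger share of tags in each DKO library. Its tailed tags per 10000 links were 2.33, 4.33 and 2.75 in the WT libraries and 9.59, 5.37 and 12.5 in the DKO libraries. The genotypes did not overlap, with a gap of 1.03 per 10000 between WT replicate 2 (5 tags) and DKO replicate 2 (13 tags). These values rest on 4, 5 and 2 tailed tags in WT and on 20, 13 and 5 in the DKO libraries. Their counting error was not worked out, so the gap may lie within it. H2-K1 averaged 3.14 ± 1.06 (SD, n = 3) over the WT libraries and 9.16 ± 3.6 (SD, n = 3) over the DKO libraries. Of the 442 gene IDs seen with a tailed tag in each library, 12.7% were higher in DKO without overlap and 3.39% lower. H2-K1 did not pass edgeR's filter on low counts in the main fit. In some fits on fewer libraries it did. With numbers 1 and 2 only its log2 change was 1.03 (SE 0.54, edgeR adjusted p = 0.19). Without WT replicate 1, 2 or 3 it was 1.12, 1.51 and 1.13, and without DKO replicate 2 it was 1.78 (edgeR adjusted p from 0.35 to 0.93). Without that filter its log2 change was 1.39 (SE 0.74, edgeR adjusted p = 0.64), in a fit of 6469 IDs whose median log2 change was 0.54. The reads per H2-K1 tag were 1.5, 2.2 and 1 in the WT libraries and 2.70, 2.38 and 3.6 in the DKO libraries. How many IDs were higher in DKO in this way was not counted. For B2m and H2-D1 the reads per tag overlapped between genotypes, and the mean of B2m was lower in DKO (2.39 against 2.85). The part of reads per tag in the difference of H2-K1 was not tested.

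H2-D1 had 4.67, 4.33 and 5.49 tailed tags per 10000 links in WT and 7.19, 4.13 and 5.01 in the DKO libraries. These overlapped, with means of 4.83 ± 0.598 (SD, n = 3) over the WT libraries and 5.45 ± 1.58 (SD, n = 3) over the DKO libraries. The means differed by 0.613, near the SD of the WT libraries and below that of the DKO libraries. Without DKO replicate 1, the one high library, the mean was lower in DKO, by a difference (DKO minus WT) of -0.26 per 10000. In the fit without the filter the log2 change of H2-D1 was 0.25 (SE 0.71, edgeR adjusted p = 0.93).

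**Figure D5:**
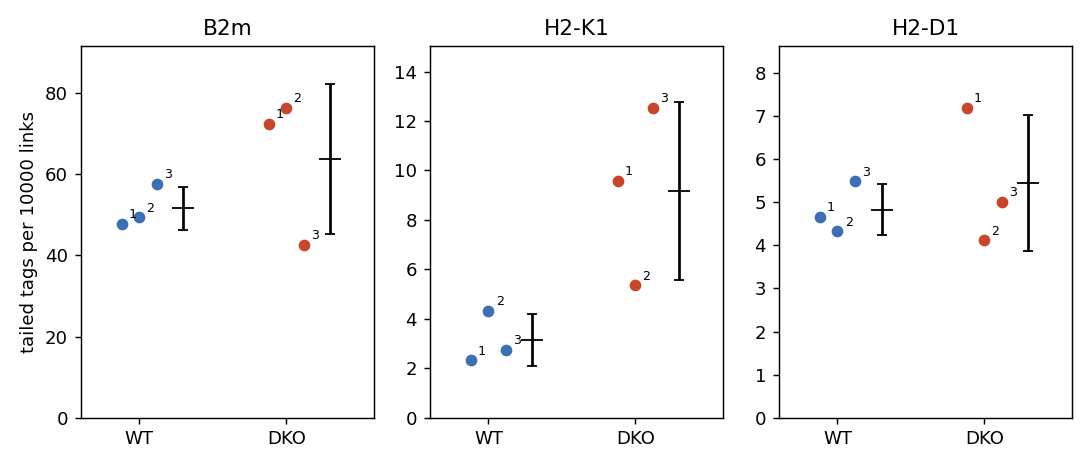
Tailed tags per 10000 tag-to-gene links for B2m, H2-K1 and H2-D1, 1 point per library labelled with its replicate number, with the mean and SD of 3 libraries beside the points (the 3 y axes differ). The H2-K1 points of DKO, from 5.37 to 12.5, all lie above the WT points, from 2.33 to 4.33, whereas B2m and H2-D1 overlap.

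The number of B2m tags for each heavy chain tag was 6.83, 5.7 and 7 in the WT libraries and 4.31, 8.04 and 2.43 in the DKO libraries. The WT libraries were close to each other, and DKO lay both above and below them. H2-K1 had fewer tags than H2-D1 in WT replicates 1 and 3, the same number in WT replicate 2, and more in 3 of 3 DKO libraries. These orders rest on 2 to 20 tags per gene and library.

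The gene IDs whose mean tail followed that of B2m most closely over the 6 libraries were ENSMUSG00000087412.4, with a Pearson r of 0.95, and ENSMUSG00000000682.7, with an r of 0.93, out of 43 compared. The next, ENSMUSG00000008683.16, had an r of 0.78. Each of these IDs, like B2m, was among the 5 of 44 whose mean tails were longer in DKO without overlap. By tag count the closest of 169 IDs had an r of 0.86. The depth of a library is common to all its IDs, and depth differed between libraries. Number 3 stood apart in both genotypes, and what lies behind these correlations was not tested. No symbols were available for these IDs.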

How the data were processed

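The authors deposited, per library, tables of tags, of mapped tags, of links between tags and gene IDs, and of values per gene ID. Reads per tag and tags per gene ID are whole-number counts in the deposited tables. Tail length in nt is entered as a score in the deposited tables, after and before mapping. Tools named in the submitters' processing notes include GSNAP and bedtools, and the builds named are mm10 and GRCm38. The tail caller, the gene annotation and the sense of the flag column were not given in the sources used.

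Links were joined to mapped tags, and the length after mapping was used. A tag was tailed at 5 nt or more, and a tag with several IDs counted under each. For the 3 genes this gave the deposited tag counts in all 6 libraries and the deposited mean, a geometric mean, within 1e-06 nt. Members and lists were chosen with earlier results of these data known. Gene lists of the class I pathway and of cell type markers could not be matched to IDs. Named genes are the 3 members and the IDs most like them.

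Mean tail length (log2) was tested with limma 3.58.1 over IDs that had 10 or more tailed tags in each library, and tag counts with edgeR 4.0.16 (TMM, filterByExpr), with genotype as the only term, Benjamini-Hochberg adjustment over all IDs and a threshold of 0.05. DESeq2 1.42.0 was an alternative. The software was R 4.3.3 and Python 3.11.15 with SciPy 1.17.1 and pandas 2.3.3. Counts of libraries of 1 genotype differed by more than sampling noise in every pair (chi-square over 2.2 per degree of freedom), so none was taken as a copy of another. This check cannot tell whether libraries came from the same mouse. Deviations from the group means correlated within replicate numbers 1, 2 and 3 by 0.16, 0.29 and 0.41 for tail length and by 0.12, 0.18 and 0.33 for tag counts. Every value was over 0.1, and on this, not on the labels, same-numbered differences are given and a replicate block was fitted as an alternative. The main tests did not use the numbers. These correlations cannot show that libraries were paired, because number 3 stood apart in both genotypes. Promoter windows and gene positions are RefSeq's (GRCm38.p6), matched by symbol for 3 of 3 genes.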

Additional observations from a re-analysis of the deposited data

How the results depend on the processing

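The log2 change of B2m in mean tail length kept its direction, with an adjusted p above 0.05, in 17 of 17 alternatives, at 0.26 to 0.50 (0.38 to 0.50 when 1 library was left out). For many of these the direction was fixed beforehand. The B2m means did not overlap between genotypes, so leaving out libraries could not reverse it. Tags with a single ID, at least 3 tags and the replicate block return the main estimate of 0.43 for B2m by construction. With tags of flag 25 only the change of B2m was 0.29. This setting, the length before mapping, tags of at least 2 reads, and the replicate block with centring were chosen after seeing the data, as were the settings for values with no test. With at least 30 tags, or with tags of at least 2 reads, B2m had too few tags to be tested. The replicate block left the change at 0.43 (SE 0.08, limma adjusted p = 0.13), and with centring as well it was 0.26 (adjusted p = 0.13). IDs called for tail length numbered 0 in 19 of 19 alternatives. The log2 change of B2m in tag count was positive in 13 of 13, at 0.13 to 0.44 (0.13 to 0.36 when 1 library was left out). IDs called for tag count numbered 3 with the replicate block, 30 with numbers 1 and 2 only, and 0 to 8 on leaving out single libraries, with 8 for WT replicate 3. B2m was in none of these sets, and the cause was not tested. No other call changed under the replicate block. As values with no test, DKO minus WT was 1.5 to 21.1 nt for the mean tail of H2-K1 and 0.778 to 20.1 nt for that of H2-D1 when libraries were left out, and 4.15 to 7.92 tags per 10000 links for H2-K1. The heavy chains had 2 to 20 tailed tags per library, and this depth kept them out of the limma fit.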
